A study of Mus musculus with 12 samples.

Results

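Gonadal somatic cells of XX (female) mouse embryos were compared at 11.5 and 10.5 days post coitum (dpc). The comparison used 6 of the 12 arrays of the series, the 3 labelled female 11.5 dpc and the 3 labelled female 10.5 dpc. The labels alone chose them, with no measured value. The other 6 arrays held male (XY) cells, 3 at each age, and are used here only to set the XX change beside the XY change and to share 1 estimate of the spread. All 4 groups carried the same transgene, pSF1-eGFP, in which a promoter of Sf1 (the gene Nr5a1) drives a green fluorescent protein. The green cells were collected by fluorescence-activated cell sorting, and their RNA was amplified in a double round and labelled with biotin before hybridisation. The reporter limits which cells were taken: the adrenal primordium, which lies beside the gonad, also uses Nr5a1, and the labels do not describe the dissection. The labels do not state whether the 3 arrays of a group stem from different embryos or pools; the spread behind each p-value is that of the arrays and could be technical.

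The mouse gonad starts as a thickening of the coelomic epithelium over the mesonephros, the genital ridge, and its first somatic cells need the transcription factors Nr5a1, Wt1, Gata4, Lhx9 and Emx2. At 10.5 dpc the ridge looks alike in XX and XY embryos. During the following day the Y-linked gene Sry sets the supporting cells of XY gonads on the path to Sertoli cells of the testis, while in XX gonads Wnt4 and R-spondin signalling support the ovarian path, on which the same cells become pregranulosa cells. Other somatic cells of the ridge go on to form the interstitium, where steroid hormones are later made.

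The values are array intensities on a linear scale, made by the authors with RMA, a background correction, quantile normalisation and a summary of the probes in each probe set. A change is the difference of the group means of log2(intensity + 1), 11.5 minus 10.5 dpc, with its standard error (SE, n = 3 arrays per group). The SE rests on the spread pooled over all 4 groups, XY arrays included. A gene was called, and is said to have risen or fallen, where limma's Benjamini-Hochberg adjusted p was below 0.05. A difference between the sexes is the XY change minus the XX change, tested in the same fit. Each gene is represented by its brightest probe set, and 18193 genes were measured. Probe sets with names ending in _x_at were used only where a gene had no other. Of the 238 genes named whose XX change was called, 100 moved by over 1.5 times where the mean of all probe sets naming the gene alone was taken in its place. For those whose change is printed, the change over that mean follows as the probe set mean. Genes are grouped in 44 lists of pathways, processes and cell types that held 976 measured genes, and a list is described by its counts and its median change beside those over all genes.

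The 6 XX arrays separated by age. Across probe sets, the correlation r between arrays of a group was 0.9981 to 0.9988 in the 4 groups, against 0.9755 to 0.9763 between XX arrays of different ages. Xist, the noncoding RNA that coats the inactive X chromosome, read 7149, 6979 and 6745 on the 10.5 dpc arrays. It read 8510.5, 8419 and 8113 on the 11.5 dpc arrays, without overlap between the ages. The change of 0.26 ± 0.27 was not called. Its SE includes the spread of the XY arrays, so the missing call does not show that Xist stayed level in XX. Of 6 measured Y-linked genes, 5 did not pass and 1 did. That gene, Eif2s3y, a subunit of a translation factor, read 9.41, 12.5 and 7.45 at 10.5 dpc and 60.4, 68.4 and 65.2 at 11.5 dpc, a rise of 2.63 ± 0.14 (adjusted p = 6.1e-08). All 3 XX arrays at 11.5 dpc were above all 3 at 10.5 dpc, and their mean was 4.03% of the XY mean at 11.5 dpc. The part of this signal in the testis genes described further on was not tested. For actin, the 3' probe set divided by the 5' one, a sign of RNA and amplification quality, went from 5.32 ± 0.117 (SD, n = 3) to 9.97 ± 0.124 in XX, and that of Gapdh from 2.7 ± 0.103 to 3.88 ± 0.0593. In XY cells both went down, from 9.9 to 7.59 and from 4.65 to 4.19. The part of this shift in the XX changes was not tested. For Eif2s3y the probe set mean was 1.30.

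The markers of the gonadal label were all present, and they did not move together. Nr5a1, the gene behind the sort, read 382, 378 and 373 at 10.5 dpc and 519, 594 and 535 at 11.5 dpc, a rise of 0.54 ± 0.051 (adjusted p = 6.9e-06). Gata4, a zinc finger factor needed for the ridge to thicken, rose by 0.83 ± 0.041, from a mean of 217 to 388. Wt1, which keeps the early somatic cells alive, fell by 0.35 ± 0.028, from 1689 to 1328, and Lhx9, a homeobox factor that activates Nr5a1, fell by 0.31 ± 0.028, from 6668 to 5379. Emx2, a homeobox factor of the coelomic epithelium and ridge, read 3580, 3713 and 3782 at 10.5 dpc and 1182, 1169.9 and 1156 at 11.5 dpc. Its groups did not overlap, and it fell by 1.66 ± 0.039 (adjusted p = 4.4e-10). Groups without overlap between the ages are common here: the 6 XX arrays were apart for 10041 of all 18193 genes (55.2%). In bulk samples such as these, fewer cells of a type and less RNA per cell cannot be told apart, here and in every result that follows. For Nr5a1, Gata4 and Lhx9 the probe set means were 0.28, 0.43 and -1.33.

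Over 1 day, expression of a large share of the genome moved in XX cells. Cell division genes, early positional genes and neuronal genes fell, while genes of the extracellular matrix, of BMP and activin signalling and of the nuclear factor I family rose. Of 18193 genes, 4201 (23.1%) rose and 4893 (26.9%) fell, and the median change of all genes was -0.01, with 10% of genes below -0.82 and 10% above 0.69. Changes of at least 2-fold were fewer: 1091 genes (6%) rose and 1334 (7.33%) fell by that much. Calls were 46.2% rises, and this share went to 32.7% (3743 rises and 7719 falls) where each array was first centred on its median. Counted over probe sets in place of genes, 9448 of 18800 calls (50.3%) were rises.

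Most of these changes had a counterpart in XY cells. Of the 1091 genes that rose at least 2-fold in XX, 989 (90.7%) also rose in XY and 623 (57.1%) did so at least 2-fold, which is 57.6% of the 1082 genes with such a rise in XY. Of the 1334 genes that fell at least 2-fold in XX, 1209 (90.6%) also fell in XY and 654 (49%) did so at least 2-fold, 69.4% of the 943 with such a fall in XY. Of all 18193 genes, 9751 were called in XY in either direction, 5.95% rose at least 2-fold there and 5.18% fell by that much. Calls in opposite directions were rare, with 25 of the 1091 and 21 of the 1334. The sizes differed more often than the directions: the XY change was above the XX change by the test of the difference for 3420 of all 18193 genes (18.8%), and below it for 2731 (15%). Among the 1334 falls in XX, 776 (58.2%) were smaller in XY, and 788 (59.1%) belonged to genes that were already higher in XX than in XY at 10.5 dpc. Among the 1091 rises, 542 (49.7%) were smaller in XY, and 466 (42.7%) belonged to genes that were already lower in XX than in XY at 10.5 dpc. Choosing genes for a large XX change on the same arrays raises these shares, by an amount that was not tested. The shares of all genes higher and lower in XX at 10.5 dpc were not counted.

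**Figure D1:**
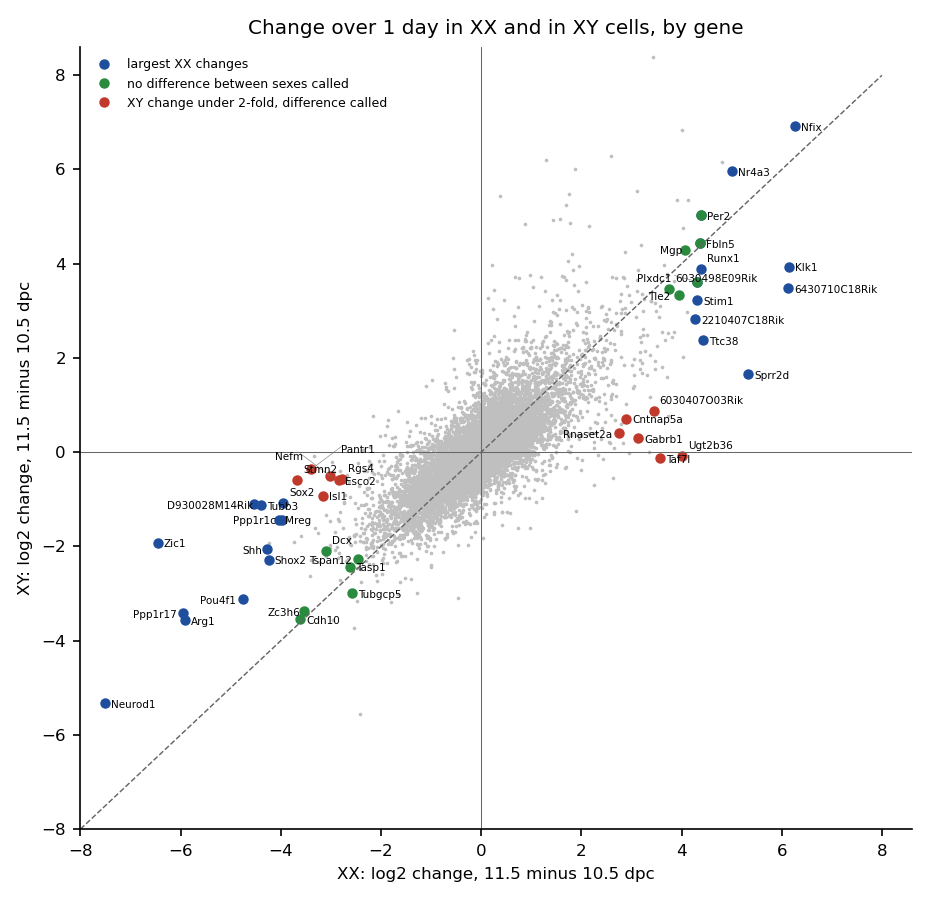
Each point is a gene, with its log2 change from 10.5 to 11.5 dpc in XX cells on the x axis and in XY cells on the y axis, each from 3 arrays per age; the dashed line marks equal changes. Blue points are the largest XX changes, green points are changes of at least 2-fold called in both sexes with no difference called between them (Per2, Fbln5 and Plxdc1 belong to the blue set too), and red points are XX changes whose XY change was under 2-fold. Most genes follow the dashed line, while Ugt2b36 and Taf7l on the right and Stmn2 and Pantr1 on the left lie near 0 on the y axis.

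The largest rises, among genes whose 6 XX arrays did not overlap and whose higher mean reached 200, were led by Nfix, a transcription factor of the nuclear factor I family. Nfix read 5.33, 5.51 and 4.73 at 10.5 dpc and 423, 522 and 481 at 11.5 dpc, a rise of 6.26 ± 0.092 (adjusted p = 5.8e-11). It was far below the array medians of 41.06 to 43.74 on every 10.5 dpc array and far above them on every 11.5 dpc array. The tissue kallikrein Klk1 and the small proline-rich protein Sprr2d rose more in XX than in XY. Klk1 rose by 6.14 ± 0.27 in XX and 3.94 ± 0.27 in XY, and Sprr2d by 5.33 ± 0.13 and 1.66 ± 0.13. Runx1, a transcription factor later found in pregranulosa cells, read 36.7, 33.8 and 32.2 at 10.5 dpc and 742, 725 and 736 at 11.5 dpc, a rise of 4.39 ± 0.086 (adjusted p = 1.8e-10) against 3.88 ± 0.086 in XY. Stim1, the calcium sensor of the endoplasmic reticulum, rose by 4.31 ± 0.14. The others of the 12 largest were Nr4a3, Per2, Fbln5, Plxdc1, Ttc38, 6430710C18Rik and 2210407C18Rik. Probe set means were 2.28 for Nfix, 3.11 for Klk1 and 1.80 for Runx1.

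For some of the strongest changes no difference between the sexes was called. Among such genes, with changes of at least 2-fold in XX and in XY, the largest rises in XX were those of Per2, a repressor of the circadian clock, Fbln5, an organiser of elastic fibres, Plxdc1, Mgp, a matrix protein that holds back calcification, the corepressor Tle2 and 6030498E09Rik. Mgp read 86.7, 78.3 and 59.9 at 10.5 dpc and 1243, 1211 and 1294 at 11.5 dpc, a rise of 4.06 ± 0.12 (adjusted p = 1.3e-09) beside 4.30 ± 0.12 in XY. Like all genes of this paragraph, Mgp was chosen for XX arrays that did not overlap and for a large change. The largest falls of this kind were those of the cadherin Cdh10, Zc3h6, Dcx, which binds microtubules in migrating neurons, the protease Tasp1, Tubgcp5 and Tspan12. Cdh10 read 1712, 1673 and 1617 at 10.5 dpc and 124, 147 and 134 at 11.5 dpc, a change of -3.62 ± 0.065 (adjusted p = 1.2e-10) beside -3.55 ± 0.065 in XY. Its groups lay more than 10-fold apart. Tubgcp5, of the gamma-tubulin complex, fell by 2.58 ± 0.12 by its brightest probe set, while its 2 other probe sets were called in the other direction and the mean of all its probe sets gave -0.09, not called. The probe set mean of Cdh10 was -1.48.

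Other changes were seen in XX with an XY change under 2-fold. Ugt2b36, an enzyme that conjugates glucuronic acid to steroids and foreign compounds, read 23.3, 20.1 and 26.9 at 10.5 dpc and 403, 369 and 399 at 11.5 dpc, a rise of 4.01 ± 0.099 (adjusted p = 5.5e-10). In XY its means were 25.1 and 23.6, and the difference between the sexes was -4.09 ± 0.14. Taf7l, a relative of a general transcription factor subunit that is known from germ cells and fat cells, rose by 3.57 ± 0.22 from a mean of 33.5 to 388, while in XY it read 137 and 126. Gabrb1, a subunit of the GABA receptor channel, rose by 3.13 ± 0.073 and by 0.30 ± 0.073 in XY. The others of the 6 largest rises were 6030407O03Rik, Cntnap5a and Rnaset2a. All 6 falls of this kind had a higher mean in XX than in XY at 10.5 dpc, which choosing them for a larger fall in XX favours. Isl1, a homeobox factor of motor and sensory neurons and of mesenchyme, fell by 3.16 ± 0.057, from 2919.8 to 326, and in XY it fell by 0.92 ± 0.057, from 617 to 325. Stmn2 and Nefm, neuronal cytoskeleton genes, Pantr1, a noncoding RNA, Rgs4, a brake on G protein signalling, and Esco2, which acetylates cohesin in dividing cells, were the other 5. For Gabrb1 the probe set mean was 1.02.

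**Figure D2:**
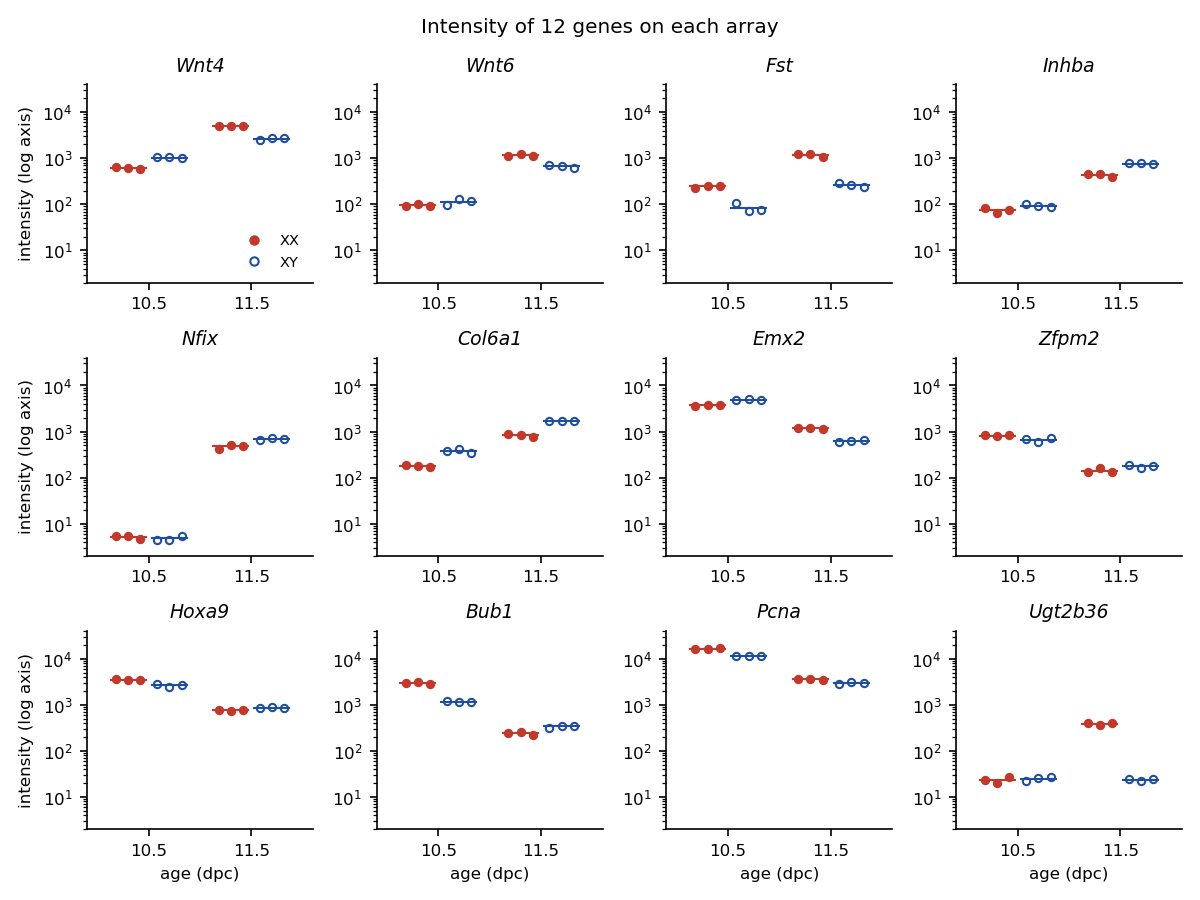
Intensity on a log axis of 12 genes on each of the 12 arrays, by age; filled red points are XX arrays, open blue points XY arrays, and each line marks the mean of 3 arrays. In XX the groups of the 2 ages do not overlap for any of the 12 genes, as for 55.2% of all genes. Wnt4, Wnt6 and Fst end higher in XX than in XY, and Ugt2b36 rises in XX only to a mean of 390.2 while both XY means stay under 26.

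Among regulators of the gonad and the genital ridge, falls outnumbered rises. Of 26 measured members 16 fell and 8 rose, 5 and 3 of them at least 2-fold, and the median change was -0.32 in XX and -0.33 in XY. The largest fall was that of Zfpm2 (Fog2), the cofactor through which Gata4 acts in the gonad. Zfpm2 read 823, 795 and 827 at 10.5 dpc and 135, 158 and 133 at 11.5 dpc, a change of -2.51 ± 0.089 (adjusted p = 4.4e-09). Gata4 itself rose by 0.83. Hmgb3, a chromatin protein of proliferating cells, fell by 2.28 ± 0.037 in XX and fell by 0.76 ± 0.037 in XY, a difference of 1.53 ± 0.053. Nr2f1, an orphan receptor of mesenchyme, fell by 1.66 ± 0.11, and Tcf21, a factor of the mesonephric and gonadal mesenchyme that represses Nr5a1, fell by 1.05 ± 0.042, with no difference between the sexes called for either. For Zfpm2 and Tcf21 the probe set means were -1.28 and -0.60.

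The rises in this list were led by Osr1, a factor of the intermediate mesoderm from which the ridge and the kidney form. Osr1 read 251, 224 and 284 at 10.5 dpc and 804, 803 and 795 at 11.5 dpc, a rise of 1.66 ± 0.085 (adjusted p = 6.1e-08), and its groups did not overlap. Gadd45g, a stress sensor that in XY gonads is needed for timely Sry expression, rose by 1.27 ± 0.059 in XX and by 1.47 ± 0.059 in XY. Dmrt1, a factor that later keeps testis cells male, rose by 1.06 ± 0.097 in XX, more than in XY (0.48 ± 0.097, difference -0.58 ± 0.14). Gata4 changed by 0.05 in XY (difference -0.78). Numb, which divides Notch signalling unequally between daughter cells, rose by 0.68 ± 0.046 in XX and fell by 0.24 ± 0.046 in XY, a difference that went to -0.35 over the mean of its probe sets and was not called there. Emx2 and Lhx9 fell less in XX than in XY, with changes of -1.66 against -3.00 and -0.31 against -1.46, and both differences were called. At 11.5 dpc the XX mean of Emx2 was 191% of the XY mean.

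Genes of the ovarian path mostly rose. Of 23 measured members 15 rose and 4 fell, 9 and 2 at least 2-fold, with a median of 0.59 in XX against 0.28 in XY; for 13 the XY change was below the XX change and for 5 above it. Wnt4, the secreted signal that the ovarian path depends on, read 650.3, 608 and 589 at 10.5 dpc and 5079, 5049 and 4970.4 at 11.5 dpc. Every 11.5 dpc array was more than 7-fold above every 10.5 dpc array, and the rise was 3.03 ± 0.05 (adjusted p = 9.5e-11). In XY it rose by 1.37 ± 0.05, a difference of -1.66 ± 0.07. Rspo1, which lifts Wnt signalling and whose loss turns XX gonads toward testis, read 544, 547 and 582 at 10.5 dpc and 843, 940.3 and 905 at 11.5 dpc. It rose by 0.68 ± 0.063 (adjusted p = 5.4e-06) in XX and fell by 0.48 ± 0.063 in XY, so that its XX mean at 11.5 dpc was 270.5% of the XY mean.

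Further members of the ovarian list rose in XX, some of them in both sexes. Fst, an activin antagonist of the early ovary, read 227, 255 and 251 at 10.5 dpc and 1245, 1259 and 1070 at 11.5 dpc, a rise of 2.28 ± 0.13 (adjusted p = 1.4e-07). Its XX mean was 447% of the XY mean at 11.5 dpc, and XX was already above XY at 10.5 dpc (244 against 85.3). Irx3, a homeobox factor of pregranulosa cells, rose by 2.80 ± 0.14 from 278 to 1930.4, and its XX mean was 456% of the XY mean, with no difference between the changes called (adjusted p = 0.31). Bmp2 rose by 1.46 ± 0.057 in XX and 0.74 ± 0.057 in XY. Gng13, a G protein subunit, rose by 3.20 ± 0.22 in XX to a mean of 181, while in XY the change of 0.30 ± 0.22 was not called. Foxl2, the factor that later maintains granulosa cells, was dim: it read 9.62, 10.1 and 8.96 at 10.5 dpc and 11.1, 11.2 and 11.4 at 11.5 dpc. Its rise of 0.21 ± 0.052 (adjusted p = 0.0066) separated the groups but left all 6 arrays under the array medians. Emx2 and Znrf3, which clears Wnt receptors from the cell surface, were the falls of at least 2-fold, Znrf3 with a change of -1.39 ± 0.089 in XX against -0.27 in XY. The values by probe set mean were 1.59 for Gng13, 0.11 for Foxl2 and -0.62 for Znrf3.

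Several genes best known from the fetal testis also rose in XX, to a small share of their XY level. Of 28 measured members 17 rose and 1 fell, 12 of the rises at least 2-fold, with a median of 0.52 in XX and 1.10 in XY. Where probe sets below the median intensity of all probe sets were left out, the XX median was 1.06. It was 0.38 over the mean of probe sets, and 0.41 where 16 in place of 1 was added to the intensities. Tesc, a calcium-binding protein of Sertoli cells, read 19.7, 20 and 20.2 at 10.5 dpc and 338, 292 and 378 at 11.5 dpc, a rise of 4.0 ± 0.16 (adjusted p = 1.1e-08). The XX arrays of the 2 ages did not overlap, and the XX mean at 11.5 dpc was 12% of the XY mean. The same share was 11.7% for Fgf9, the growth factor that keeps the testis path going (rise of 0.68 ± 0.072), 8.58% for Dhh, the hedgehog ligand of Sertoli cells (1.75 ± 0.14), and 3.58% for Cst9, a cystatin (1.29 ± 0.11). It was 4.03% for the Y-linked Eif2s3y, and its part in these rises was not tested. Sox9, the central factor of Sertoli cells, read 301, 328 and 297 and then 314, 263 and 298 in XX. Those groups overlapped, and the change of -0.08 ± 0.12 was not called, while the XY rise was 1.26 ± 0.12. Pdgfa, a growth factor for mesenchyme, rose by 2.38 ± 0.1 in XX and 2.41 ± 0.1 in XY, with no difference called, and Inhbb and Fgfr2 rose more in XX, by 1.49 ± 0.059 against 0.90 and by 1.31 ± 0.075 against 0.25. For Tesc, Fgf9, Dhh, Inhbb and Fgfr2 the probe set means were 2.24, 0.31, 0.87, 0.72 and 0.81.

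In the Wnt pathway, a small set of ligands and 1 feedback gene rose steeply, and receptors moved in both directions. Of 49 measured genes 19 rose and 11 fell, 6 and 5 at least 2-fold, with a median of 0.11 that went from 0.04 to 0.17 under alternative settings. Of 14 ligands and R-spondins, 4 rose and none fell: Wnt6, Wnt4, Wnt9a and Rspo1. Wnt6 read 90.5, 104 and 90.8 at 10.5 dpc and 1121, 1243 and 1137 at 11.5 dpc, a rise of 3.60 ± 0.11 (adjusted p = 2.2e-09) against 2.56 ± 0.11 in XY. Wnt9a read 136, 132 and 145 and then 665, 580 and 632, a rise of 2.18 ± 0.077 (adjusted p = 4.3e-09) against 0.52 ± 0.077 in XY. For both ligands the groups did not overlap, and the XX means at 11.5 dpc were 172% and 263% of the XY means. The remaining ligands did not pass, among them Wnt5a (-0.02 ± 0.073) at means of 978 and 960.1. For Wnt9a the probe set mean was 1.05.

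The response genes of the pathway were mixed. Nkd1, an inhibitor that Wnt signalling itself switches on, rose by 3.17 ± 0.13, from 88 to 789.6, and by 1.96 ± 0.13 in XY. Axin2, the most used reporter of the pathway, rose by 0.59 ± 0.061, from 56.1 to 84.7. Lef1 (0.11 ± 0.07) did not pass. Lgr5, an R-spondin receptor and Wnt target, rose by 0.76 ± 0.13 in XX, from 15.2 to 26.8, and by 3.69 ± 0.13 in XY. Of 15 receptors 6 rose and 5 fell, 4 of them with an opposite call from another probe set. Fzd7 fell by 1.52 ± 0.073 from 3712 to 1291, with an opposite call from 1 other probe set, while Fzd2 rose by 1.01 ± 0.042 from 992 to 2003. Among secreted inhibitors Frzb and Sfrp1, which bind Wnt ligands, fell (changes of -2.29 ± 0.062 and -1.27 ± 0.033), Frzb more than in XY. Sfrp1 had an opposite call from 1 other probe set, and its difference between the sexes went to 0.22 over the mean of its probe sets, not called. Dkk2, another secreted inhibitor, rose by 1.24 ± 0.16. Ctnnb1, beta-catenin, fell by 0.59 ± 0.031 and stayed among the brighter genes at 14391. For Nkd1, Axin2, Lgr5, Fzd7, Fzd2, Frzb and Ctnnb1 the probe set means were 0.90, 0.31, 0.36, -0.64, 0.63, -1.43 and -1.37.

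**Figure D3:**
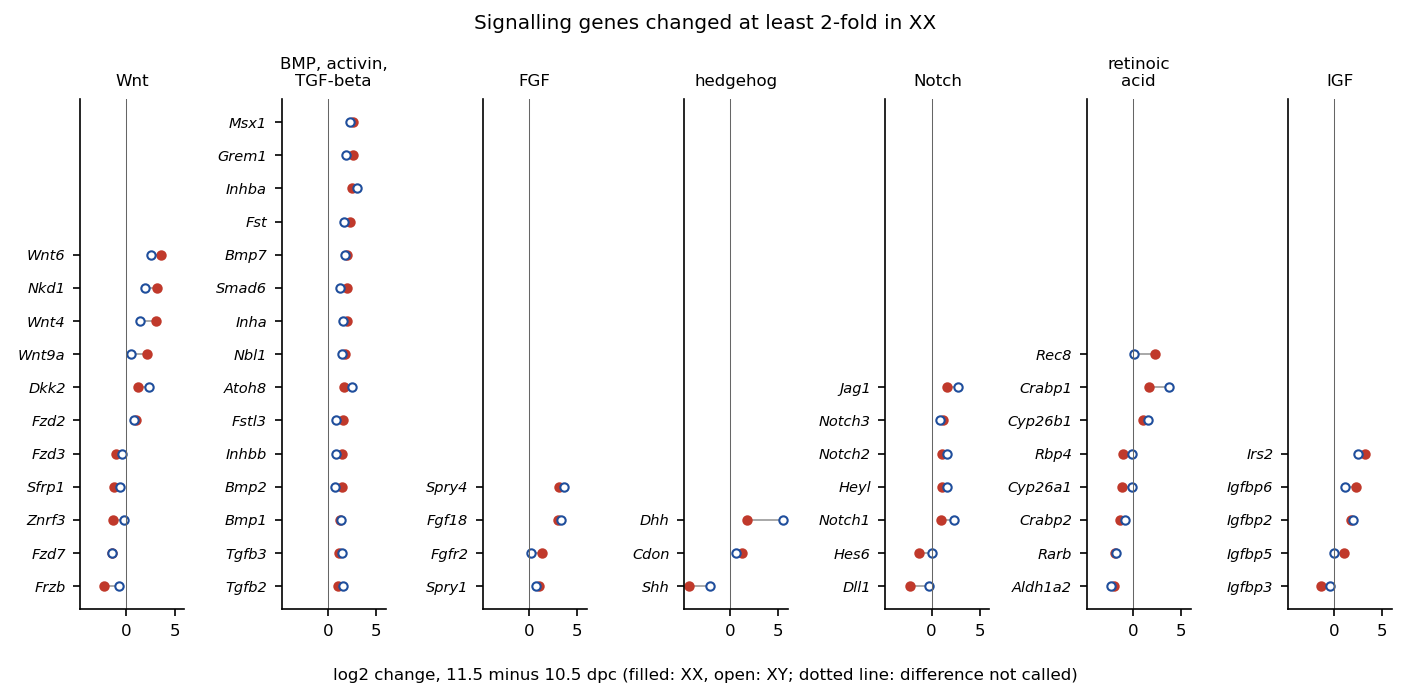
Log2 change from 10.5 to 11.5 dpc of the genes of 7 signalling pathways that changed at least 2-fold in XX; filled red points are XX changes, open blue points XY changes of the same gene, and a dotted line joins points whose difference was not called. All 15 genes of the BMP, activin and TGF-beta panel lie right of 0 in both sexes, while the Wnt, Notch and retinoic acid panels hold genes on both sides.

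Most genes of BMP, activin and TGF-beta signalling rose. Of 51 measured genes 32 rose and 7 fell, and all 15 changes of at least 2-fold were rises. The median was 0.37 in XX and 0.41 in XY, and the XX median went from 0.26 to 0.52 under alternative settings. Ligands led, with 11 of 16 rising and 1 falling, and 8 rising at least 2-fold. The activin and inhibin subunits rose together. Inhba read 83.6, 63.6 and 73.7 at 10.5 dpc and 451, 464 and 399 at 11.5 dpc, a rise of 2.56 ± 0.1 (adjusted p = 9.1e-09). Inha, whose product turns activin into inhibin, read 745, 724 and 704 and then 2938, 2848 and 2822, a rise of 1.98 ± 0.044 (adjusted p = 3.2e-10). Neither gene overlapped between ages. Inha and Inhbb rose more in XX than in XY, by 1.98 against 1.59 and by 1.49 against 0.90, and Inhba less, by 2.56 against 3.03. The Inhba difference (adjusted p = 0.033) was not called without the 10.5 dpc array 1 or 3 or the 11.5 dpc array 3. For Inhba the probe set mean was 1.28.

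Most antagonists and targets rose as well. Of 10 extracellular inhibitors 7 rose and none fell, among them Fst, the BMP antagonist Grem1 (2.59 ± 0.16, from 72.4 to 443) and the activin binder Fstl3 (1.57 ± 0.1). Of 9 target genes 8 rose and none fell. Msx1, a homeobox factor switched on by BMPs, rose by 2.65 ± 0.14, from 42.8 to 273, and Smad6, which blocks BMP receptors, by 1.99 ± 0.053, from 459 to 1827, against 1.24 ± 0.053 in XY. Bmp7 rose by 2.04 ± 0.11 with no difference between the sexes called, Bmp2 by 1.46 and Bmp4 by 0.37 ± 0.056. Receptors and transducers were even, with 6 rises and 6 falls of 16 and no change of 2-fold. For 5 of these 16, another probe set was called in the other direction. Bmp5 was the 1 ligand that fell, by 0.56 ± 0.087 in XX, while its XY change was 0.19. For Msx1, Bmp7 and Bmp5 the probe set means were 1.49, 0.67 and -0.35.

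FGF signalling genes mostly rose, with 12 rises and 4 falls among 22 and medians of 0.25 in XX and 0.68 in XY. With dim probe sets left out by the same limit, the XX median was 0.61, and over the mean of probe sets it was 0.16. Fgf18, a ligand, read 48.8, 35.2 and 45 at 10.5 dpc and 342, 334 and 342 at 11.5 dpc, a rise of 2.96 ± 0.14 (adjusted p = 3.4e-08). Spry4, a feedback inhibitor of the FGF receptors, rose by 3.12 ± 0.16, from 20.9 to 189.6. In XY they rose by 3.33 and 3.65, with no difference called. Dusp6, a phosphatase that FGF signalling induces, went the other way: it read 2118, 1739 and 1859 and then 1127, 1208 and 1127, a change of -0.72 ± 0.069 (adjusted p = 7.5e-06), and rose by 0.73 ± 0.069 in XY. Etv5, another FGF target, rose by 3.04 in XY; its XX change of 0.23 ± 0.079 was called here but not under 9 of the 15 alternative settings tried. For Spry4 the probe set mean was 1.11.

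Hedgehog and Notch genes moved in both directions. In the hedgehog list, 7 of 15 rose and 4 fell. Of its 8 receptors and transducers 6 rose, among them the coreceptors Cdon (1.18 ± 0.08) and Boc (0.93 ± 0.083) and the transducer Smo (0.57 ± 0.035), each more than in XY. Of its 4 targets none rose and 1 fell, and Gli1 changed by 0.45 ± 0.21, not called. All 4 were dim, with XX means under 50 at both ages, so these values say little of the response. Ptch1, a receptor that is also a target, changed by 0.21 ± 0.073 in XX, a call lost under 6 of the 15 alternative settings, and by 1.04 in XY. In the Notch list 6 of 20 rose and 8 fell. Jag1, a ligand, read 297, 277 and 278 at 10.5 dpc and 849, 891 and 821 at 11.5 dpc, a rise of 1.58 ± 0.049 (adjusted p = 2.0e-09), and the receptors Notch1, Notch2 and Notch3 rose by 1.00 to 1.15. Dll1, a ligand known from neural progenitors, fell by 2.20 ± 0.17, and 4 of 8 targets fell, among them Hes6 (-1.36 ± 0.12), Hey1 (-0.93 ± 0.068) and Hes1 (-0.34 ± 0.085), while Heyl rose by 1.10 ± 0.14. For Boc, Smo, Jag1, Notch2, Notch3 and Hes6 the probe set means were 0.40, 0.35, 0.65, 0.55, 0.61 and -0.86.

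In the IGF list 9 of 16 rose and 4 fell. Irs2, the adaptor that carries insulin and IGF signals inward, read 44.1, 44.3 and 45 at 10.5 dpc and 423, 449 and 407 at 11.5 dpc, a rise of 3.23 ± 0.063 (adjusted p = 1.8e-10). The groups did not overlap, and the rise was larger than in XY (2.48 ± 0.063). The binding proteins split: Igfbp6, Igfbp2 and Igfbp5 rose by 2.27 ± 0.2, 1.70 ± 0.065 and 1.03 ± 0.048, while Igfbp3 fell by 1.33 ± 0.06. The XY change of Igfbp5 (-0.03 ± 0.048) was not called. The receptors Insr and Igf1r, which XY gonads need for testis formation, fell (changes of -0.40 ± 0.067 and -0.57 ± 0.06), Igf1r with opposite calls from 3 other probe sets; over the mean of the probe sets Igf1r rose by 0.36 and Insr changed by -0.02, not called. For Igfbp5 the probe set mean was 0.32.

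Retinoic acid genes changed in both directions, 8 rises and 8 falls of 21. Aldh1a2, the main enzyme that makes retinoic acid in the mesonephros and coelomic epithelium, read 3084, 3399.8 and 3433 at 10.5 dpc and 894, 758 and 847 at 11.5 dpc, a change of -1.99 ± 0.064 (adjusted p = 2.4e-09). Its groups did not overlap, and the XY change was -2.29 ± 0.064. Rarb, a receptor gene that retinoic acid itself induces, fell by 1.82 ± 0.1 and the binding protein Crabp2 fell by 1.30 ± 0.039, whereas Crabp1 rose by 1.62 ± 0.042 and Cyp26b1, which degrades retinoic acid, by 1.06 ± 0.048. Rec8, a meiotic cohesin that retinoic acid induces in germ cells, rose by 2.25 ± 0.14 to a mean of 98.2 in XX, while its XY change of 0.09 ± 0.14 was not called. Stra8, the meiotic entry gene, read a mean of 32.9 at both ages.

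Among genes of steroid hormone synthesis, the cholesterol carrier and the first enzyme rose and the adrenal receptor for ACTH fell. Of 19 measured genes 7 rose and 3 fell. Cyp11a1, the enzyme that makes the first steroid from cholesterol, read 121, 117 and 82.8 at 10.5 dpc and 849, 978 and 844 at 11.5 dpc, a rise of 3.06 ± 0.33 (adjusted p = 1.8e-05), and its XX mean was 267% of the XY mean, with no difference between the changes called (adjusted p = 0.12). Star, which carries cholesterol into mitochondria, rose by 1.37 ± 0.041, from 319 to 825, against 0.65 ± 0.041 in XY. Mc2r, the ACTH receptor of the adrenal, read 406, 419 and 417 and then 82.5, 57.8 and 59.1, a change of -2.64 ± 0.19 (adjusted p = 6.9e-07). Cyp17a1, Cyp21a1, Cyp11b1 and Hsd3b1, enzymes of the later steps, had means under 10 at both ages and did not pass. Esr1, the oestrogen receptor alpha, rose by 1.63 ± 0.19 to a mean of 48.3. In cholesterol synthesis 8 of 18 genes rose and 8 fell, and the only change of 2-fold was that of Fdps (-1.51 ± 0.071), where XY changed by 0.22. Of these 18 genes, 5 had an opposite call from another probe set. For Cyp11a1, Esr1 and Fdps the probe set means were 1.38, 0.98 and -0.77.

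The extracellular matrix rose on a broad front. Of 52 measured genes 34 rose and 8 fell, 21 and 1 at least 2-fold, with a median of 0.77 in XX and 0.89 in XY. Among 12 fibrillar and other collagens 11 rose and none fell, with a median of 1.80. The 3 chains of collagen VI, a beaded filament around cells, rose together. Col6a2 read 80.4, 75.8 and 75.4 at 10.5 dpc and 895, 970.4 and 875 at 11.5 dpc, a rise of 3.55 ± 0.14 (adjusted p = 1.2e-08). Col6a1 read 191, 175 and 171 and then 899, 839 and 762, a rise of 2.21 ± 0.081 (adjusted p = 5.9e-09), and Col6a3 rose by 2.80 ± 0.15. Neither Col6a2 nor Col6a1 overlapped between the ages. Col12a1, which coats collagen I fibrils, rose by 2.38 ± 0.055, and the collagen I chains Col1a2 and Col1a1 by 1.76 ± 0.074 and 1.41 ± 0.093. Probe set means were 0.81 for Col12a1 and 0.84 for Col1a1.

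Among basement membrane genes the changes were smaller on the median, with 9 of 15 rising, 3 falling and a median of 0.42. Lamc1, the laminin chain shared by most laminins, rose by 1.81 ± 0.16 from a mean of 47.7 to 168, and Col18a1, a basement membrane collagen, by 1.73 ± 0.051 against 4.06 in XY. Loxl1, an elastin cross-linker, rose by 2.07 ± 0.097, and of 8 small leucine-rich proteoglycans 4 rose, Bgn (biglycan) by 2.40 ± 0.057 and Ogn by 4.80 ± 0.1 among them. Tnc, tenascin C of migrating and remodelling tissue, was the 1 gene of the whole list that fell at least 2-fold: it read 271, 235 and 294 and then 63.7, 67.7 and 64, a change of -2.01 ± 0.071 (adjusted p = 4.3e-09), against -0.30 ± 0.071 in XY, with an opposite call from 1 other probe set. For Lamc1, Loxl1, Ogn and Tnc the probe set means were 1.20, 1.08, 2.53 and -0.61.

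Adhesion genes divided between integrins and cadherins. Of 11 integrins and keratins 8 rose and 2 fell. Itga6, a laminin receptor subunit, read 331, 371 and 328 at 10.5 dpc and 1069, 1097 and 1135 at 11.5 dpc, a rise of 1.68 ± 0.053 (adjusted p = 2.4e-09), and Itga4, Itga5 and Itgb5 rose by 1.10 to 1.77. The epithelial keratins Krt7 and Krt8 rose by 1.89 ± 0.11 and 1.10 ± 0.048. Of 19 cadherins and junction proteins 4 rose and 6 fell. Cdh2, N-cadherin, read 7071, 8294 and 8545 at 10.5 dpc and 1803, 1836 and 1772 at 11.5 dpc, a change of -2.14 ± 0.067 (adjusted p = 2.2e-09) against -0.46 ± 0.067 in XY. Epcam, Cldn7 and Cdh1, genes of tight epithelia, fell (changes of -1.89 ± 0.12, -1.67 ± 0.11 and -1.21 ± 0.096), the last with an XY rise of 0.72. Pkp2, a desmosome plaque protein, rose by 1.12 ± 0.038 in XX, while its XY change of -0.04 ± 0.038 was not called. The values by probe set mean were 0.51 for Itga4, 0.62 for Itga5 and -1.0 for Epcam.

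**Figure D4:**
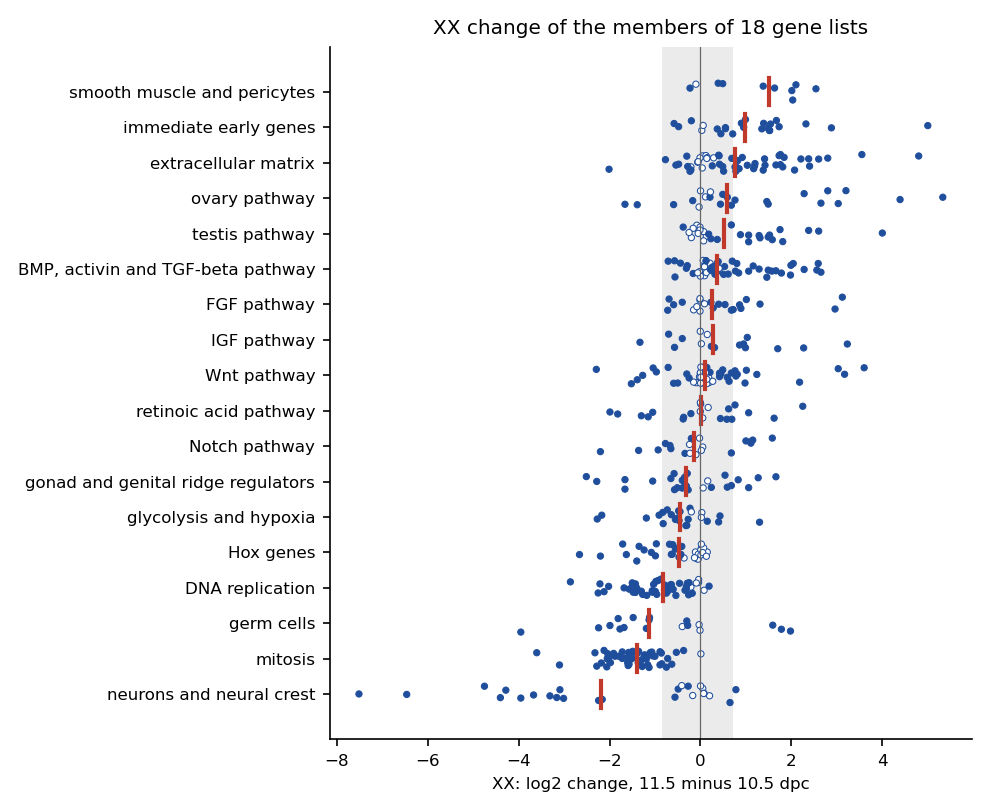
XX log2 change of the members of 18 gene lists, 1 point per gene; filled points were called by limma, open points were not, the red bar is the median of the list, and the grey band spans the 10th to the 90th percentile of all 18193 genes (-0.82 to 0.69). The mitosis and DNA replication points lie almost all left of 0, with medians of -1.39 and -0.83, while the extracellular matrix list has a median of 0.77.

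The machinery of cell division fell as a block. Of 55 measured mitosis genes 54 fell and none rose, 45 at least 2-fold, with a median of -1.39 in XX and -1.03 in XY. Over the mean of probe sets the XX median was -1.16. The exception, Kif2c, was at 136 and 137 by its brightest probe set (0.01 ± 0.039). Bub1, a kinase of the spindle checkpoint, read 2925, 3059 and 2890.2 at 10.5 dpc and 249.6, 259 and 222 at 11.5 dpc, a change of -3.60 ± 0.065 (adjusted p = 1.2e-10). Ttk, the kinase that starts the same checkpoint, read 1169, 1064 and 1198 and then 122, 148 and 128, a change of -3.10 ± 0.077 (adjusted p = 5.5e-10). All 3 arrays at 11.5 dpc were lower than all 3 at 10.5 dpc by more than 7-fold for both kinases. The falls were larger in XX than in XY for most of the list: the difference was called for 41 genes, with the XY change above the XX change for 39. Bub1 fell by 1.78 ± 0.065 in XY and Ttk fell by 1.33 ± 0.077. The probe set mean of Bub1 was -2.17.

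The other members followed with smaller falls. Aurka and Aurkb, the kinases of spindle poles and centromeres, fell (changes of -2.32 ± 0.073 and -1.98 ± 0.078), and Ndc80, which ties kinetochores to microtubules, fell by 2.28 ± 0.039. The cyclins Ccna2 and Ccnb2 fell (changes of -1.80 ± 0.064 and -1.23 ± 0.048), their partner Cdk1 fell by 1.13 ± 0.059 from 6419 to 2939, and Mki67, the proliferation marker, fell by 1.05 ± 0.038 from 6492 to 3138. Cdca8, of the chromosomal passenger complex, fell by 0.37 ± 0.035, from 12528 to 9689.7. Probe set means were -1.35 for Aurka and -0.96 for Cdca8.

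Promoters of genes that peak in mitosis often carry a CHR, the cell cycle genes homology region, which the DREAM and MuvB complexes read, close to the start site and downstream of CCAAT boxes. RefSeq promoters (GRCm38.p6, 250 bases before to 50 after the start) were available for 46 of the 55 mitosis genes and searched on both strands for the CHR letters TTTGAA or TTCGAA. They were found for 37 (80.4%), against 21.7% of all 27025 genes with a promoter and 17.5% of measured genes with one. A gene counted where any of its promoters held the letters. CCAAT was found for 35 (76.1%), against 41.1% of all genes with a promoter. Among all genes that fell at least 2-fold in XX, the CHR letters were in 22.6%, and in 20.7% outside the mitosis list, against 13% among those that rose at least 2-fold. To show the arrangement, the 120 bases before the start are printed for 6 mitosis genes that fell at least 2-fold and have the CHR letters within 25 bases of the start and a CCAAT upstream, with the CHR match in capitals (TTCAAA is TTTGAA read on the other strand). They lie at chr19:37376262-37376381 on the plus strand (Kif11, a spindle motor with a change of -1.37 ± 0.056), chr7:80294356-80294475, plus (Prc1, which bundles the central spindle, -1.36 ± 0.04), chr2:164769809-164769928, plus (Ube2c, the ubiquitin carrier of the anaphase-promoting complex, -1.23 ± 0.04), chr4:118437344-118437463, minus (Cdc20, the activator of that complex, -1.19 ± 0.052), chr10:69352913-69353032, minus (Cdk1) and chr7:127042421-127042540, minus (Kif22, a chromosome arm motor, -1.59 ± 0.038).
Kif11: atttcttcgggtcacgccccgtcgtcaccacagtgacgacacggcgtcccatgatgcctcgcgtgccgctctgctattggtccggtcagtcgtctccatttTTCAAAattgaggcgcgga
Prc1: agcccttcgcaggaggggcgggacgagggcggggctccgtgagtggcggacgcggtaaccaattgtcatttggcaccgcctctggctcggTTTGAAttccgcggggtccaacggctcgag
Ube2c: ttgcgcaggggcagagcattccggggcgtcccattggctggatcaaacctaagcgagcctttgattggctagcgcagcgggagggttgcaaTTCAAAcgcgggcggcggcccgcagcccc
Cdc20: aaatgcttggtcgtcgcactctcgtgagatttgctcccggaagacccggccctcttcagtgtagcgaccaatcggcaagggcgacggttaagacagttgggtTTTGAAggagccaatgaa
Cdk1: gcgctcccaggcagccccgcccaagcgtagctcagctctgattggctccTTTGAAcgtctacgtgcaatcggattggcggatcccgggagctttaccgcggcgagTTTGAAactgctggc
Kif22: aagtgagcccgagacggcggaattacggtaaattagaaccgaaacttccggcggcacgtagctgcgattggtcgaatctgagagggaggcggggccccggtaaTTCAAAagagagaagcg
Cdk1 has 2 matches and the other 5 have 1 each. The printed genes were picked for this arrangement, and how many of the 37 genes share it was not counted. In Ckap2, Ect2 and Mki67 the nearest CHR letters end 95, 108 and 92 bases before the start. Mki67 and Ncapg have no CCAAT in their 120 bases. A match describes the letters and says nothing of binding.

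Genes of DNA replication fell too, with a smaller median. Of 48 genes 42 fell and 1 rose, 19 of the falls at least 2-fold, with a median of -0.83 in XX and -0.53 in XY. Over the mean of probe sets the XX median was -0.57. Pcna, the sliding clamp of the replication fork, read 15904, 16393 and 16974 at 10.5 dpc and 3683, 3594 and 3369 at 11.5 dpc, a change of -2.21 ± 0.043 (adjusted p = 1.8e-10). Dbf4, the activator of the origin-firing kinase Cdc7, fell by 2.86 ± 0.088 from 1961 to 271, and Cdc7 fell by 2.02 ± 0.063. Rrm2, which makes deoxynucleotides, fell by 2.25 ± 0.069. Of the 6 subunits of the MCM helicase, Mcm4, Mcm6 and Mcm2 changed by -1.57 to -1.43, Mcm5 fell by 0.98 ± 0.057 and Mcm3 fell by 0.78 ± 0.034, the last with opposite calls from 2 other probe sets, while Mcm7 (-0.04 ± 0.049) did not pass. E2F letters (TTTGGCGC, TTTCCCGC, TTTCGCGC or TTTGCCGC, both strands) were searched in the same way for the 40 genes of this list with a promoter. They were found for 14 (35%), against 2.6% of all genes with a promoter and 3.81% of measured genes with one. For Dbf4, Cdc7, Mcm4, Mcm6, Mcm5 and Mcm3 the probe set means were -1.45, -1.02, -1.04, -0.55, -0.39 and -0.47.

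Genes that start or stop the cycle did not move as 1 group. Of 20 starters and their regulators 12 fell and 4 rose, with medians of -0.26 in XX and 0.08 in XY. Cdk2, the kinase of the entry into S phase, fell by 1.97 ± 0.11 from 547 to 139, and Mycn, a growth-promoting factor of early embryos, read 1386, 1415 and 1413 and then 463, 436 and 493, a change of -1.6 ± 0.057 (adjusted p = 4.6e-09). Ccnd2, a D-type cyclin, rose by 1.31 ± 0.05 in XX and 2.23 ± 0.05 in XY, while Ccnd1 (0.02 ± 0.071) did not pass in XX and rose in XY by 1.75. Ccnd3 rested on the choice of probe set: its XX change of 0.01 ± 0.041 was not called, but it rose by 0.14 where the arrays were quantile normalised again, and by 0.37 over the mean of its probe sets, where its difference between the sexes was 0.01 and not called. Of 19 genes of cell cycle exit 6 rose and 10 fell. The inhibitors Cdkn1a and Cdkn1c rose by 0.80 ± 0.049 and 0.51 ± 0.043, Gadd45b and Btg2 by 1.59 ± 0.031 and 1.39 ± 0.049, and the pocket proteins Rbl1 and Rb1 fell (changes of -1.53 ± 0.084 and -1.02 ± 0.058). The values by probe set mean were -1.0 for Cdk2, -0.64 for Mycn, -0.99 for Rbl1 and -0.49 for Rb1.

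Hox genes, which give cells their position along the body axis, either fell or did not pass. Of 33 measured, 19 fell and none rose, 8 at least 2-fold, with a median of -0.47 in XX and -0.16 in XY. Hoxa9 read 3596, 3419.8 and 3433 at 10.5 dpc and 757, 745 and 769 at 11.5 dpc, a change of -2.20 ± 0.052 (adjusted p = 4.7e-10), without overlap. In the D cluster 5 of 8 fell, all at least 2-fold, and the 3 that did not, Hoxd11, Hoxd12 and Hoxd13, had means under 11 at both ages. Hoxd9 read 2726, 2534 and 2633 and then 1295, 1269 and 1175, a change of -1.08 ± 0.041 (adjusted p = 7.8e-09). Hoxd3 fell by 2.66 ± 0.31, with 10.5 dpc arrays that spread from 79.1 to 185. Hoxb6 fell by 1.71 ± 0.056 in XX, from 249 to 75.1, and fell by 0.28 ± 0.056 in XY, where its 10.5 dpc mean was 74.1. The bright Hoxc8, at 7311 and 6661, did not pass (-0.13 ± 0.052, adjusted p = 0.064).

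**Figure D5:**
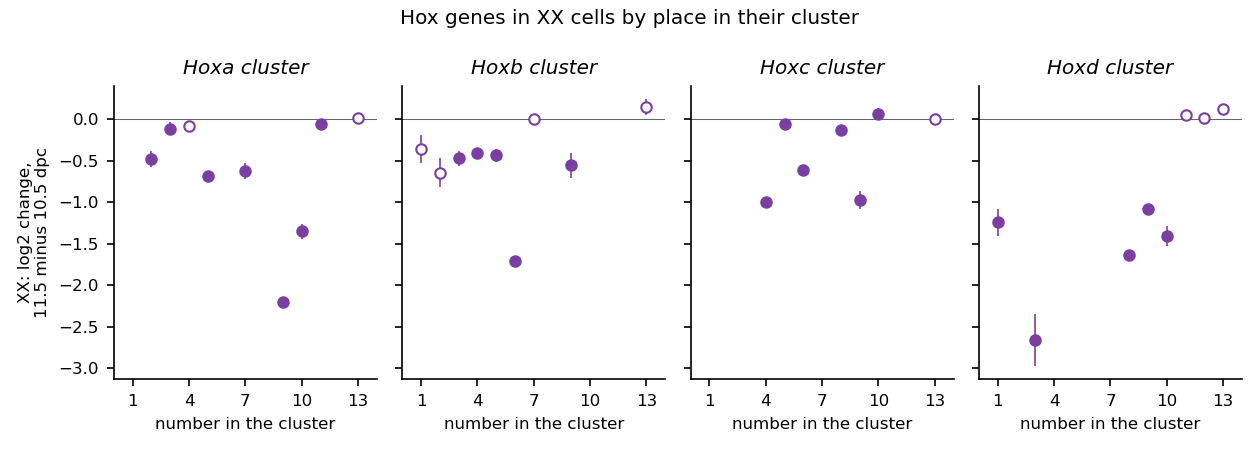
XX log2 change of 33 Hox genes against their number in the cluster, 1 panel per cluster, with SE bars; open points are genes whose means were under 50 at both ages. Genes numbered 8 to 10 of the A and D clusters that were bright lie below -1, the D cluster has a median of -1.16, and no gene was called higher.

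Genes that mark early and later stages of the embryo parted. All 4 members of the nuclear factor I family, transcription factors that rise with differentiation in several organs, rose: Nfix by 6.26, Nfib by 1.87 ± 0.054 (1156 to 4236), Nfic by 1.21 ± 0.093 and Nfia by 0.56 ± 0.05. Of 12 RNA-binding and chromatin proteins of early stages 7 fell and 1 rose, with a median of -0.38. Trim71 (Lin-41), a let-7 target and ubiquitin ligase, read 598, 685 and 641 at 10.5 dpc and 121, 125 and 116 at 11.5 dpc, a change of -2.40 ± 0.055 (adjusted p = 4.0e-10) against -1.13 ± 0.055 in XY. Lin28a, which blocks the let-7 microRNAs, fell by 2.30 ± 0.13, from 76.2 to 14.8, and Tet1, a DNA demethylase, fell by 1.29 ± 0.038. Hmga2, a chromatin protein and let-7 target, stayed high at 9595 and 8852 and did not pass (-0.12 ± 0.05, adjusted p = 0.094). For Nfib, Nfic, Lin28a and Tet1 the probe set means were 0.79, 0.61, -1.15 and -0.52.

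Imprinted genes, expressed from 1 parental copy, moved both ways, 10 up and 8 down of 23. Another probe set gave an opposite call for 6 of them, 3 maternally and 3 paternally expressed. Of 10 that are expressed from the maternal copy 7 rose and 2 fell, with a median of 0.70, among them Phlda2 (1.14 ± 0.11), Igf2r (0.95 ± 0.047), which removes IGF2, and Cdkn1c. Of 13 paternally expressed genes 3 rose and 6 fell, with a median of -0.22. Mest read 11550.2, 10594 and 10654 and then 4909, 5052 and 4725, a change of -1.16 ± 0.043 (adjusted p = 6.4e-09), and Plagl1, a zinc finger factor of the imprinted network, rose by 1.10 ± 0.058. Among chromatin regulators 12 of 35 rose and 17 fell. The largest fall was that of Ezh2, the enzyme of Polycomb repressive complex 2, with a change of -2.08 ± 0.059, from 4466 to 1058. Uhrf1, which keeps DNA methylation through replication, fell by 1.46 ± 0.11, and Kdm6b, which removes the mark that Ezh2 writes, rose by 1.17 ± 0.049. Among 9 genes of X inactivation and escape 6 fell and 1 rose, among them Ddx3x (-1.02 ± 0.055) and Eif2s3x (-1.14 ± 0.041, with -1.18 in XY). In this list 3 genes had an opposite call from another probe set. Probe set means were 0.54 for Igf2r and 0.38 for Plagl1.

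Genes of glycolysis and hypoxia mostly fell. Of 24 measured members 17 fell and 4 rose, with a median of -0.46 in XX and -0.37 in XY. Ddit4, which low oxygen and stress induce to restrain mTOR, read 10070.2, 9707 and 9614 at 10.5 dpc and 2249, 2094 and 2205 at 11.5 dpc, a change of -2.17 ± 0.044 (adjusted p = 2.0e-10) beside -2.0 ± 0.044 in XY. Ankrd37, another hypoxia target, fell by 2.27 ± 0.054, the glucose transporter Slc2a3 fell by 1.19 ± 0.037 and Pdk1, which keeps pyruvate out of mitochondria, fell by 0.83 ± 0.052, while Hk1 rose by 1.30 ± 0.059. Of 9 serine, glycine and folate enzymes 7 fell and 1 rose, with a median of -0.78, among them Psph (-1.23 ± 0.046) and Mthfd2 (-1.12 ± 0.029). Of 12 purine and pyrimidine enzymes 6 rose and 5 fell, with a median of 0.18. Mitochondrial energy genes (11 falls and 5 rises of 22) and ribosome production (9 and 3 of 20) held 1 change of 2-fold between them, that of nucleolin, Ncl (-1.12 ± 0.031). Another probe set gave an opposite call for 7 of the 22 and 1 of the 20. Of 30 genes of protein folding and stress 18 fell and 7 rose, the endoplasmic reticulum chaperones Hsp90b1 and Canx among them (-1.13 ± 0.04 and -1.09 ± 0.035), the former with an opposite call from 1 other probe set and a change of -0.07 over the mean of its probe sets, not called. For Slc2a3, Pdk1, Hk1, Ncl and Canx the probe set means were -0.64, -1.88, 0.65, -0.21 and -0.62.

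Genes of defence and of handling foreign compounds mostly rose. Of 25 immune and interferon genes 13 rose and 5 fell. Bst2, which tethers budding viruses, rose by 3.46 ± 0.16 from 72.3 to 798, with no difference from XY called, and Clu, a secreted chaperone, by 2.70 ± 0.16. Lcn2, which binds bacterial iron carriers, read 6.19, 6.38 and 6.49 at 10.5 dpc and 62, 68.9 and 94 at 11.5 dpc, a rise of 3.35 ± 0.12 (adjusted p = 4.1e-09); the XY means were 6.38 and 6.36. Of 42 detoxification and lipid genes 23 rose and 10 fell, with Ugt2b36 in front and Cbr3 and Gstt1 rising by 2.45 in both cases. The nuclear receptors were even, 8 rises and 8 falls of 25. Nr3c1, the glucocorticoid receptor, rose by 1.79 ± 0.18 from 279 to 956, and Nr2f6 by 1.74 ± 0.052 against 0.63 ± 0.052 in XY. Of 24 immediate early genes 19 rose and 3 fell, with a median of 0.97 in XX and 1.24 in XY; Nr4a3 rose by 5.0 ± 0.17, while Fos and Jun fell (changes of -0.58 ± 0.04 and -0.48 ± 0.027). The values by probe set mean were 0.59 for Nr3c1, 1.14 for Nr2f6, 1.67 for Nr4a3 and -0.25 for Jun.

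Interstitial progenitor genes moved in both directions. Of 12 measured 5 rose and 5 fell. Pdgfrb, the receptor of pericytes and mesenchyme, read 1003, 966 and 1109 at 10.5 dpc and 4441, 4243 and 4496 at 11.5 dpc, a rise of 2.10 ± 0.05 (adjusted p = 4.8e-10), and the intermediate filament Nes rose by 1.11 ± 0.065. Dlk1, a surface protein of immature mesenchyme, fell by 0.82 ± 0.03 in XX with an XY change of 0.17. Of 10 smooth muscle and pericyte genes 8 rose and 1 fell, 6 at least 2-fold, with a median of 1.5. Their summed intensity went from 14968 to 15219 on the XX arrays at 10.5 dpc to 24036 to 24059 at 11.5 dpc, and Cspg4, a pericyte proteoglycan, rose by 2.54 ± 0.14. For Nes and Dlk1 the probe set means were 0.65 and -0.31.

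Markers of cells other than gonadal somatic cells moved with age in XX, and their part in the changes above was not tested. Of 26 neuronal and neural crest genes 17 fell and 2 rose, and their summed intensity fell from 18312 to 18402 on the arrays at 10.5 dpc to 2512 to 2689 at 11.5 dpc, against 4577 to 4709 and 2377 to 2423 in XY. Neurod1, a factor of newborn neurons, read 2256, 2202 and 2259 and then 11.9, 10.3 and 11.8, the largest fall in XX at -7.51 ± 0.059 (adjusted p = 6.7e-13), and Zic1, Pou4f1, Tubb3, Shh and Shox2 were among the 12 largest falls as well. Sox10, the crest marker, did not pass (0.07 ± 0.16). Of 18 germ cell and pluripotency genes 12 fell and 3 rose: Sox2, Pou5f1 and Kit fell (changes of -3.95 ± 0.072, -2.24 ± 0.12 and -1.99 ± 0.14) and Dazl rose by 1.98 ± 0.13. Their sum, 11881 to 12270.2 and then 14641 to 15394, includes Ifitm1, which went from 3275 to 11233. For Kit the probe set mean was -0.96.

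Erythroid genes rose in 7 of 12 cases and none fell, with sums of 6515 to 7006 and 15662 to 15939, led by the embryonic globins Hba-x (1.83 ± 0.065) and Hbb-y (1.70 ± 0.052). Of 17 endothelial genes 6 fell and 2 rose, and sums went from 3909 to 3955 down to 2611 to 2700.3; Emcn and Ets1 fell (changes of -2.03 ± 0.26 and -1.42 ± 0.042), Ets1 with an opposite call from 1 other probe set, while Cldn5 (0.14 ± 0.24) and Erg (0.20 ± 0.19) did not pass. In the nephric list 6 of 14 fell and none rose, and sums went from 5362 to 5497 down to 2064 to 2149.8. Emx2, Epcam and Cdh1 were among the 4 that fell at least 2-fold, while Pax8, Gata3 and Lrp2, its defining markers, stayed at means under 11. Of 13 coelomic epithelium genes 6 fell and 4 rose. Bnc1 and Lrrn4, markers of mesothelium, fell (changes of -2.95 ± 0.065 and -2.62 ± 0.14), while Krt8 and Podxl rose by 1.10 and 0.67 ± 0.042 and the sum stayed at 14279 to 14453 and 13985 to 14351. Macrophage genes fell in 7 of 16 cases and rose in 1, with sums of 706 to 786 and 674 to 698. Liver and gut genes (2 rises and 3 falls of 15, sums of 352 to 405 and 446 to 514) and skeletal muscle genes (1 rise and 5 falls of 14, sums of 5328 to 5466 and 5064 to 5202) held few calls. For Hbb-y, Ets1 and Podxl the probe set means were 0.90, -0.32 and 1.13.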

How the data were processed

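The authors made the deposited intensity values with RMA (no version named), per the submitters' processing notes; the values are linear, and the sources used here do not say how that scale was reached. Quantile normalisation hides a change shared by most transcripts, and dim genes have understated changes. Of 45101 probe sets, 64 controls were left out. Values were turned into log2(value + 1) and fitted over all 12 arrays by limma 3.58.1 under R 4.3.3 (4 group means, 8 residual and 1.89 prior degrees of freedom); adjusted p-values are Benjamini-Hochberg over 45037 probe sets. Gene names came from the platform's annotation, updated through Entrez identifiers with RefSeq GRCm38.p6 (34945 had 1 symbol, 932 several, 9160 none). A gene took its probe set of highest mean that names it alone, with those ending in _x_at taken only where there was no other. Named genes were the 12 largest rises and falls with non-overlapping arrays and a mean of at least 200, the 6 largest alike in both sexes, the 6 largest seen in XX with an XY change under 2-fold, up to 4 members of each list in each direction with core members, and genes that check the labels. Some further members were named after their values were seen. The comparison and the lists were chosen with earlier results of these data known. The fit was tested on simulated data. The number of arrays limits the precision.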

Additional observations from a re-analysis of the deposited data

Results flagged for a closer look

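By the test of the difference between the sexes, the XY change lay above the XX change for 3420 genes and below it for 2731. Among genes named for a change of at least 2-fold in XX and under 2-fold in XY, the difference (XY change minus XX change, log2) was -4.09 for Ugt2b36, -3.69 for Taf7l, -2.83 for Gabrb1, -2.56 for 6030407O03Rik, -2.36 for Rnaset2a and -2.18 for Cntnap5a. It was 3.07 for Stmn2, 3.02 for Pantr1, 2.51 for Nefm, 2.24 for Esco2, 2.23 for Isl1 and 2.21 for Rgs4. Groups of 3 arrays were not searched for single arrays that stand apart.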

How the results depend on the processing

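In XX, 9094 genes were called, 2425 of them at least 2-fold, and the difference between the sexes was called for 6151. Of 15 alternative settings, centring each array on its median raised the falls to 7719 and shifted the median change of all genes to -0.08, and taking the mean of a gene's probe sets lowered the falls of at least 2-fold to 853; the cause was not tested. Leaving out 1 array gave 8683 to 8711 calls, 2415 to 2456 of at least 2-fold and 5692 to 6035 differences. With the replicate number as a block there were 8989, 2425 and 5930. Deviations of XX arrays with the same number correlated at -0.039, -0.006 and 0.035, and those with different numbers at -0.075 to 0.078. These values show no shared deviation but cannot settle whether the numbers pair the samples, and the labels do not say. Of the 264 genes named, 6 lost or reversed their XX call under at least 1 alternative, and 30 their difference between the sexes. Over the mean of probe sets, Igf1r rose by 0.36, and the differences of Col1a2, Kdm6b and Ncl went to 0.00, -0.11 and -0.16. Of 238 XX changes called, the pseudocount of 16 moved those of Eif2s3y, Esr1, Foxl2, Lcn2 and Lgr5 by over 1.5 times, to 1.65, 1.05, 0.09, 2.01 and 0.45, and quantile normalisation those of Ptch1 and Wt1, to 0.34 and -0.21. Intensities near background limit what can be said of dim genes.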
